A study of Mus musculus with 16 samples.

Results

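The 8 genes described here are Cacna1c, Ryr2, Casq1, Casq2, Atp2a2, Pln, Slc8a1 and Camk2d. All but Casq1 encode the core of the calcium cycle of the cardiac muscle cell. Casq1 encodes a protein of the calcium store that prevails in fast skeletal muscle. The 8 genes were taken by name, with earlier results of these data known. A probe set was used where the annotation of the array gives a member as its only gene symbol, each member had 1 such probe set, and the 8 genes are among 22180 genes measured in this way. They were followed through the myocardium of 16 C57Bl/6J mice, each heart on 1 Affymetrix array prepared from 500 ng of total RNA. The mice were wild type (WT) or carried the delta 19 allele of Clock in both copies (Clock mice below, which the labels call transgenic), and each genotype ate standard chow (SC) or a high-fat diet (HFD), with 4 mice in each of the 4 groups. Every mouse was 32 weeks old and had been on its diet for 24 weeks, and every heart was taken 7 hours after lights on. Other times of day were not measured, so each difference below holds for that hour alone. CLOCK is a transcription factor of the circadian clock, and the allele, which leaves out 1 exon, is carried by every tissue of the mouse and not by the heart alone. The sources used here give neither the sex of the mice nor the make-up of the diets.

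In a heart cell each action potential opens the L-type calcium channel of the surface membrane. The calcium that enters opens the ryanodine receptor of the sarcoplasmic reticulum (SR), the internal calcium store, and the released calcium starts contraction. Relaxation follows as a pump returns calcium to the store and an exchanger carries the rest out of the cell.

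A value below is a log2 difference of 1 heart from the median of all 16 hearts for that probe set, as the authors deposited it. Such values compare hearts for 1 gene, but hold no abundance, so no gene is ranked against another by level and the labelled tissue could not be checked by the level of its markers. The logarithm was read as base 2 and a positive value as higher expression, neither of which the sources used here state. Differences between groups are given ± the standard error of a limma fit over all genes with 1 mean per group. A gene was called at an adjusted p under 0.05 (Benjamini-Hochberg, over 22180 genes). The array medians lay between -0.00154 and 0.00281, and the SD of the values within an array between 0.111 and 0.159, highest in WT SC replicates 2 (0.159) and 4 (0.148). Dbp, a gene driven by CLOCK, lay between -0.62 and -0.37 in the 8 Clock hearts and between 0.37 and 2.45 in the 8 WT hearts. For this gene every heart thus stood on the side of its label. The lowest WT value of Dbp, 0.37, was that of WT SC replicate 4. The probe set of Clock itself read 0.17 in that heart, the highest of the 16 hearts. It lay between -0.54 and -0.10 in the other WT hearts and between -0.011 and 0.13 in the Clock hearts. Which part of Clock it reads is not known.

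Averaged over the diets, 3 of the 8 genes were called higher in Clock than in WT hearts, against 2.44% of all genes. These were Ryr2, Casq1 and Casq2. They encode the release channel of the SR and both calsequestrins, which are among the calcium-binding proteins of the store. The RefSeq sequence (GRCm38.p6) just before the transcription start of these 3 genes is shown because each was called higher in Clock hearts. CLOCK acts through the short DNA element called an E-box, whose general form is CANNTG. Over the 16 hearts Pearson's r was 0.83 for Ryr2 with Casq1, 0.50 for Casq1 with Casq2 and 0.45 for Ryr2 with Casq2. Each sequence gives the 250 bases before the start, 5′ to 3′ on the strand of the gene, with every CANNTG in capitals. In Casq2 a match to the MEF2 element of muscle genes is in capitals too.

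Ryr2, chr13:12106946-12107195, minus strand: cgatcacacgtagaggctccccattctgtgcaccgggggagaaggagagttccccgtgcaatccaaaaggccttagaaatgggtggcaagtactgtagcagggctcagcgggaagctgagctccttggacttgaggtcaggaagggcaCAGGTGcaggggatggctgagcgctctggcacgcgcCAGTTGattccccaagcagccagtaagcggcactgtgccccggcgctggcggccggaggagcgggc

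Casq1, chr1:172219896-172220145, minus strand: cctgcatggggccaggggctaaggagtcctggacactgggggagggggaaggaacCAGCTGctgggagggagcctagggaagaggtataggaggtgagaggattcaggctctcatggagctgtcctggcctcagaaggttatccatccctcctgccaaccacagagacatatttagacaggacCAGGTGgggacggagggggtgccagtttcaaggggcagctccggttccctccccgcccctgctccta

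Casq2, chr3:102086165-102086414, plus strand: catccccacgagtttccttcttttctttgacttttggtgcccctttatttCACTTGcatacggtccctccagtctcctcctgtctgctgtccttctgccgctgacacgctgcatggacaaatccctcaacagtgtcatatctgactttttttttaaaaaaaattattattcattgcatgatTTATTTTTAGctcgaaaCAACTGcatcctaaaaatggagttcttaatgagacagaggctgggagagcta

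Ryr2 held CANNTG at positions 102 and 66 before the start, Casq1 at 195 and 67, and Casq2 at 200 and 52. The MEF2 match of Casq2, TTATTTTTAG, began 69 bases before the start. Of the 8 genes 7 had an entry in the RefSeq promoter table, with 9 starts in all, and Atp2a2 had none. CANNTG, a loose form of which CACGTG is 1 case, stood in 8 of these 9 sequences and in 66.2% of the 32851 sequences of the same length in the table. The E-box CACGTG that CLOCK and BMAL1 prefer was in 0 of the 9 and in 6.02% of the table. Its variant CACGTT was in 0 of 9 (3.85% of the table), the REV-ERB element TAGGTCA in 0 of 9 (2.23%) and the DBP element TTATGTAA in 0 of 9 (0.819%). MEF2 matches stood in 1 of 9 and in 2.92% of the table. Both strands were searched, and a match is a run of letters, not a measured binding site.

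Ryr2 (chr13:11553099-12106945, GRCm38.p6) encodes the ryanodine receptor of the heart, the channel through which the SR releases calcium. In WT SC hearts it read -0.12, -0.25, -0.10 and -0.21. In WT HFD hearts it read -0.077, 0.0074, -0.0035 and 0.060. In Clock SC hearts it read 0.12, 0.0027, -0.040 and -0.0027, and in Clock HFD hearts 0.17, 0.14, 0.11 and 0.18. All 4 WT SC hearts lay below every other heart, and 3 of the 4 Clock HFD hearts lay above every heart of the other groups. The group means rose in the order WT SC (-0.17 ± 0.069, SD, n = 4), WT HFD (-0.0032 ± 0.056), Clock SC (0.019 ± 0.069) and Clock HFD (0.15 ± 0.034), and the middle pair did not differ beyond its spread.

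Averaged over the diets, Ryr2 was higher in Clock hearts by 0.17 ± 0.033 (1.13-fold, adjusted p = 0.00698). Of the 8 Clock hearts 5 lay above the highest WT heart. Among all genes 3.88% were called in this comparison and 2.44% were called higher, against 3 of the 8 calcium genes. Since the 8 were chosen with earlier results of these data known, these shares are a description and not a test. The difference was of like size on each diet. On SC it was 0.19 ± 0.047 (adjusted p = 0.101) and on HFD 0.15 ± 0.047 (adjusted p = 0.128), neither called. The 4 Clock and 4 WT hearts did not overlap on either diet, as in 4.95% of all genes on SC and 8.89% on HFD.

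Ryr2 was also the single member called for the diet. Averaged over the genotypes it was higher on HFD by 0.15 ± 0.033 (1.11-fold, adjusted p = 0.0335), where 1.54% of all genes were called and 0.812% were called higher. In WT hearts the diet difference was 0.17 ± 0.047 (adjusted p = 0.148), and the groups did not overlap, as in 5.3% of all genes. In Clock hearts it was 0.13 ± 0.047 (adjusted p = 0.414, groups overlapping at 1 Clock SC heart). The diet call was close to the threshold. It was lost when any 1 of 11 arrays was left out, with adjusted p of up to 0.0708 over the 16 omissions. Those 11 were WT SC replicates 2 and 4, WT HFD replicates 2, 3 and 4, Clock SC replicates 2, 3 and 4, and Clock HFD replicates 1, 2 and 4.

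Casq2 (chr3:102086415-102146514) encodes the calsequestrin of the heart, the protein that binds calcium inside the SR near the release channel. WT SC hearts read -0.025, -0.074, -0.043 and -0.0099, and WT HFD hearts -0.11, -0.12, -0.088 and -0.0083. Clock SC hearts read 0.095, 0.082, 0.10 and 0.063, and Clock HFD hearts 0.039, 0.044, 0.0083 and 0.034. All 8 Clock hearts lay above all 8 WT hearts. The gap between the highest WT heart (-0.0083, WT HFD replicate 4) and the lowest Clock heart (0.0083, Clock HFD replicate 3) was 0.017. No overlap between all 8 and all 8 was seen in 1 of the 8 calcium genes and in 0.73% of all genes.

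The Casq2 difference was small and even. Averaged over the diets it was 0.12 ± 0.026 (1.09-fold, adjusted p = 0.0143), and 14.4% of all genes differed by more in size. It was 0.12 ± 0.036 on SC (adjusted p = 0.195) and 0.11 ± 0.036 on HFD (adjusted p = 0.144). Casq2 was the least variable of the 8 genes within groups, with a pooled SD of 0.032 that only 1.77% of all genes undercut, against a median of 0.098 over all genes. The diet difference ran the other way from Ryr2, at -0.049 ± 0.026 averaged over genotypes (adjusted p = 0.445). In Clock hearts all 4 on HFD lay below all 4 on SC, with a difference of -0.053 ± 0.036 (adjusted p = 0.77). Groups without overlap, in either direction, were seen there in 5.31% of all genes.

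Casq1 (chr1:172209894-172219895) encodes the calsequestrin that prevails in fast skeletal muscle. WT SC hearts read -0.31, -0.39, -0.17 and -0.42, and WT HFD hearts -0.11, -0.34, -0.048 and 0.26. Clock SC hearts read 0.24, -0.059, 0.048 and 0.085, and Clock HFD hearts 0.11, 0.20, 0.47 and 0.78. Of the 8 Clock hearts 7 were above 0, and of the 8 WT hearts 1 was, WT HFD replicate 4. The order of the group means was that of Ryr2, from -0.32 ± 0.11 (SD, n = 4) in WT SC through -0.059 ± 0.25 in WT HFD and 0.079 ± 0.12 in Clock SC to 0.39 ± 0.30 in Clock HFD. The ranges of WT HFD and Clock SC overlapped.

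Casq1 had the largest genotype difference and the largest spread of the 8 genes. The average over the diets was 0.43 ± 0.094 (1.34-fold, adjusted p = 0.0157), and 0.577% of all genes differed by more in size. On SC the difference was 0.40 ± 0.13 (adjusted p = 0.258) with no overlap between groups, as in 4.95% of all genes. On HFD it was 0.45 ± 0.13 (adjusted p = 0.111), and 3 WT hearts lay below all Clock hearts while WT HFD replicate 4 lay among them. Without that heart the HFD difference was 0.56 and was called (adjusted p = 0.0446). The diet difference averaged over genotypes was 0.29 ± 0.094 and was not called (adjusted p = 0.151). The pooled within-group SD was 0.21, larger than in 97.8% of genes.

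**Figure D1:**
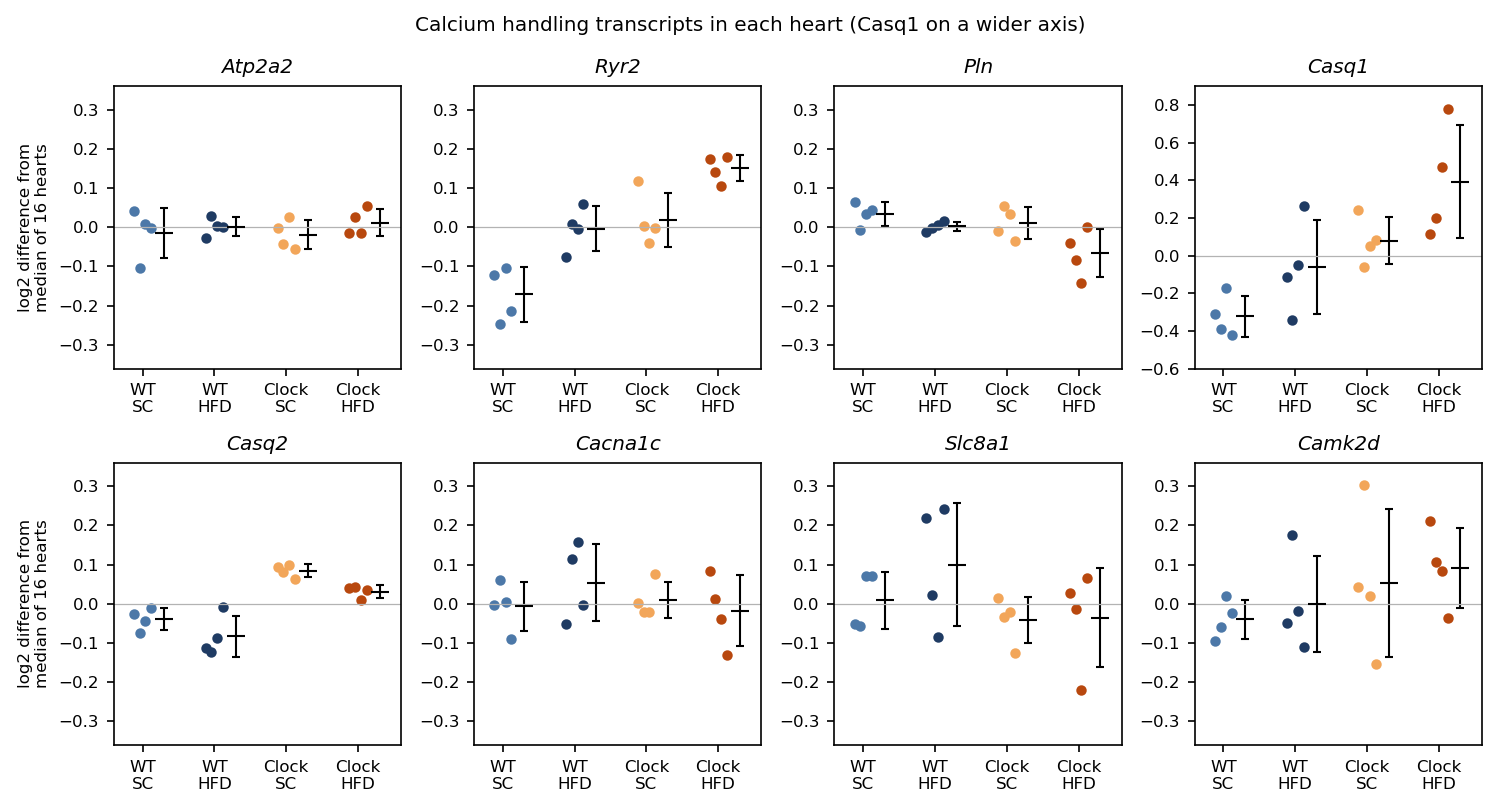
Value of each of the 8 genes in every heart (vertical axis: log2 difference from the median of 16 hearts, with a wider axis for Casq1), 1 point per heart in the groups WT SC, WT HFD, Clock SC and Clock HFD; the bars give the mean and SD of 4 hearts. Casq2 is above 0 in all 8 Clock hearts and below 0 in all 8 WT hearts. The means of Ryr2 and Casq1 climb from WT SC to Clock HFD. Ryr2, Casq1 and the other 5 genes overlap between genotypes.

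The 3 genotype calls held whichever 1 of the 16 arrays was left out. The largest adjusted p was 0.0170 for Ryr2, 0.0376 for Casq1 and 0.0345 for Casq2. With both WT SC replicates 2 and 4 left out, a step chosen after seeing the data because of their wide spread of values, none of the 3 was called. Ryr2 then differed by 0.14 (adjusted p = 0.0526), Casq1 by 0.39 (adjusted p = 0.0910) and Casq2 by 0.12 (adjusted p = 0.0582), with 2 WT SC hearts remaining.

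**Figure D2:**
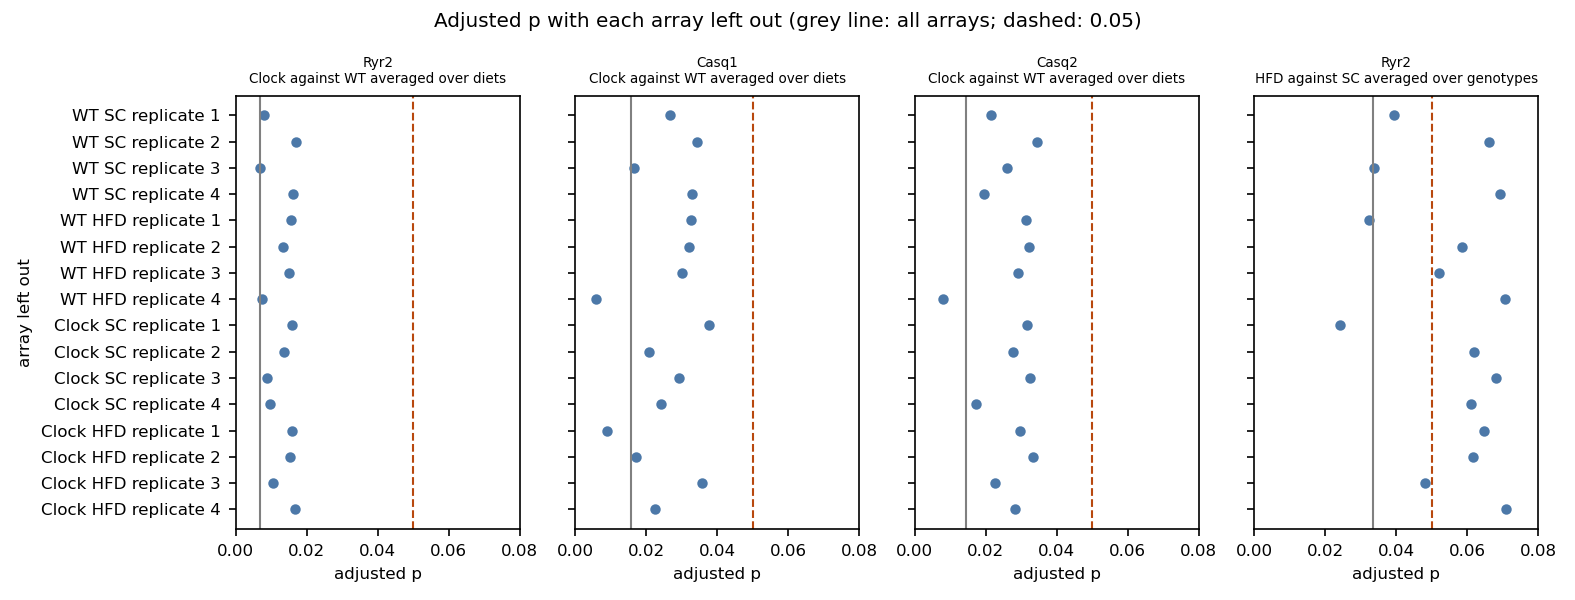
Adjusted p (horizontal axis) of 4 calls with 1 array left out at a time (vertical axis: the array left out); the grey line is the value with all arrays and the dashed line is 0.05. For the genotype difference of Ryr2, Casq1 and Casq2 all 16 points lie below 0.05, and for the diet difference of Ryr2 11 of 16 lie above it.

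Atp2a2 (chr5:122453513-122502225) encodes SERCA2, the pump that returns calcium to the SR. It lay between -0.10 and 0.040 in WT SC hearts, between -0.028 and 0.030 in WT HFD hearts, between -0.057 and 0.027 in Clock SC hearts and between -0.016 and 0.054 in Clock HFD hearts. The ranges of the 4 groups overlapped. The genotype difference averaged over diets was 0.0034 ± 0.028 (adjusted p = 0.976), with a 95% interval from -0.057 to 0.064. The diet difference was 0.023 ± 0.028 (adjusted p = 0.824, interval -0.037 to 0.083). These intervals hold no change of the size measured for Ryr2, Casq1 or the Casq2 genotype difference.

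Pln (chr10:53337686-53345999) encodes phospholamban, the small membrane protein that slows the SERCA2 pump until it is phosphorylated. WT SC hearts read 0.065, -0.0061, 0.034 and 0.043, and WT HFD hearts -0.011, -0.0015, 0.0056 and 0.015. Clock SC hearts read -0.0089, 0.053, 0.034 and -0.035, and Clock HFD hearts -0.041, -0.083, -0.14 and 0.0015. Of the Clock HFD hearts 3 lay below every other heart, and the fourth lay among the rest. No difference of Pln was called. The genotype difference averaged over diets was -0.046 ± 0.028 (adjusted p = 0.459), the diet difference -0.054 ± 0.028 (adjusted p = 0.431) and the diet difference within Clock hearts -0.077 ± 0.039 (adjusted p = 0.639).

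Cacna1c (chr6:118587240-119197384) encodes the pore of the L-type channel, the entry point of trigger calcium. Its group means were -0.0068 ± 0.063 (SD, n = 4) in WT SC, 0.054 ± 0.098 in WT HFD, 0.0090 ± 0.046 in Clock SC and -0.018 ± 0.090 in Clock HFD. All groups overlapped. The genotype difference averaged over diets was -0.028 ± 0.040 (adjusted p = 0.812, interval -0.11 to 0.056), and the diet difference 0.017 ± 0.040 (adjusted p = 0.928).

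Slc8a1 (chr17:81373105-81738387) encodes the sodium-calcium exchanger that carries calcium out of the cell. WT HFD hearts read 0.22, 0.022, -0.085 and 0.24, so the highest pair of the 16 hearts was in this group while its lowest heart lay inside the ranges of both Clock groups. Clock HFD hearts read 0.028, -0.014, -0.22 and 0.065. On HFD the genotype difference was -0.13 ± 0.074 (adjusted p = 0.469), on SC -0.050 ± 0.074 (adjusted p = 0.907), and averaged -0.092 ± 0.053 (adjusted p = 0.42). The diet difference averaged over genotypes was 0.048 ± 0.053 (adjusted p = 0.791).

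Camk2d (chr3:126595487-126846326) encodes the main cardiac isoform of the calcium/calmodulin-dependent kinase, which phosphorylates the ryanodine receptor and phospholamban. Clock SC hearts read 0.042, 0.30, 0.019 and -0.15, which held both the highest and the lowest of the 16 hearts. WT SC hearts lay between -0.095 and 0.020, WT HFD hearts between -0.11 and 0.18, and Clock HFD hearts between -0.037 and 0.21. The genotype difference averaged over diets was 0.092 ± 0.058 (adjusted p = 0.484), of a size with that of Casq2 but with a pooled SD of 0.13, larger than in 75.3% of genes. The diet difference was 0.039 ± 0.058 (adjusted p = 0.868).

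**Figure D3:**
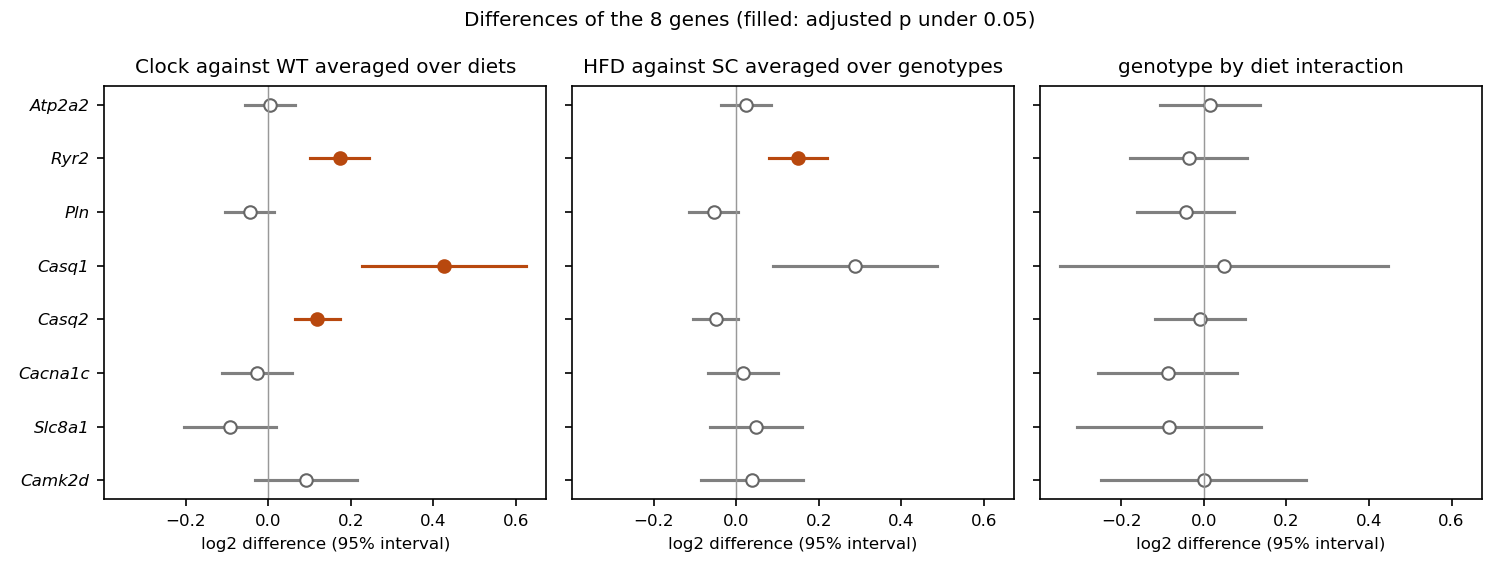
Log2 difference (horizontal axis, with 95% interval from the limma fit) of each of the 8 genes for Clock against WT averaged over diets, for HFD against SC averaged over genotypes and for the interaction; filled points have an adjusted p under 0.05. Filled points are Ryr2 (0.17), Casq1 (0.43) and Casq2 (0.12) for genotype and Ryr2 (0.15) for diet, and all 8 intervals of the interaction cross 0.

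Over the 8 genes the median genotype difference was 0.048, with 5 positive and 3 negative, against a median of -0.0014 over all genes. For the diet the median was 0.031, with 6 positive and 2 negative, against -0.0015 over all genes. For the averaged genotype difference 3 of 8 had an unadjusted p under 0.05, against 16.5% of all genes. For the averaged diet difference Ryr2 and Casq1, 2 of 8, had one (13.2% of all genes), and for none of the 8 did all HFD and all SC hearts lie apart (0.325% of all genes). Within single diets or genotypes none of the 8 was called by limma. On SC 3 of 8 had an unadjusted p under 0.05 between genotypes (9.77% of all genes) and none was called (0.491% of all genes), and the groups of 3 did not overlap (4.95% of all genes). On HFD the counts were 3 of 8 unadjusted (13.5%), none called (1.9%) and 2 not overlapping (8.89%). These genes were Ryr2, Casq1 and Casq2, with Casq1 overlapping on HFD. For the diet in WT hearts 1 of 8 had an unadjusted p under 0.05 (10.7%), none was called (0.352%) and 1, Ryr2, did not overlap (5.3%). For the diet in Clock hearts Ryr2 and Casq1, 2 of 8, had one (8.42%), none was called (0.0902%) and Casq2 did not overlap (5.31%). Each genotype comparison within 1 diet shares 1 group with each diet comparison within 1 genotype, so these are not independent of each other. The averaged genotype and averaged diet differences weigh all groups alike. Their estimates are therefore uncorrelated by design, though they rest on the same hearts and the same estimate of spread.

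The interaction asks whether the diet acted differently in Clock and WT hearts. For the 8 genes it ran from -0.088 ± 0.080 for Cacna1c to 0.048 ± 0.19 for Casq1, with 0 called by limma and 0 at an unadjusted p under 0.05. Over all 22180 genes 0 were called and 5.06% had an unadjusted p under 0.05. The interval of Casq1 ran from -0.35 to 0.45 and that of Ryr2 from -0.18 to 0.10.

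The other genes of calcium handling were taken from 8 lists by role, which were also chosen with earlier results of these data known. Of 111 genes listed 93 had a probe set of their own, and the other 18, among them the calmodulin genes and the beta-adrenergic receptors, were not analysed here. Averaged over diets 5 of the 93 were higher and 6 lower in Clock hearts, 11.8% against the 3.88% of all genes given above. The median difference of the 93 was 0.0097, against -0.0014 over all genes.

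Rcan1, the inhibitor of the calcium-activated phosphatase calcineurin, had the largest difference. WT SC hearts read -0.37, -0.51, -0.27 and -0.030, and WT HFD hearts -0.65, -0.76, -0.90 and -1.35. Clock SC hearts read 0.099, 0.63, 0.43 and 0.47, and Clock HFD hearts 0.082, 0.13, 0.42 and 0.030. All 8 Clock hearts lay above all 8 WT hearts, where 0.73% of all genes had no overlap in either direction. The difference was 0.89 ± 0.10 averaged over diets (adjusted p = 8.73e-05), 0.70 ± 0.14 on SC (adjusted p = 0.0397) and 1.08 ± 0.14 on HFD (adjusted p = 0.000734). It was called among the 18 measured calmodulin, kinase, phosphatase and anchor genes with Akap7, an anchor of protein kinase A, which fell by 0.21 (± 0.055, adjusted p = 0.0436), and 16 were not called. The SC call of Rcan1 was lost without any 1 of 10 arrays, WT SC replicates 1, 2 and 3, WT HFD replicate 3, Clock SC replicates 2, 3 and 4 and Clock HFD replicates 1, 2 and 4.

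In the SR itself few of the other genes moved. Srl, which encodes the calcium-binding glycoprotein sarcalumenin, was higher by 0.20 ± 0.042 averaged over diets (adjusted p = 0.0127) and by 0.25 ± 0.059 on HFD (adjusted p = 0.0352), 1 of 18 genes of release and store. The HFD call was lost without any 1 of 6 arrays (WT HFD replicates 1, 2 and 3 and Clock HFD replicates 2, 3 and 4; adjusted p up to 0.117), and the averaged call was kept without any single array. Its group means of -0.098, -0.029, 0.039 and 0.22 from WT SC through WT HFD and Clock SC to Clock HFD stood in the order of Ryr2 and Casq1. Of the 3 measured genes of the SR pump and its small inhibitors beside Atp2a2 and Pln, 0 were called by limma, and 0 had an unadjusted p under 0.05.

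Among 14 measured subunits and partners of voltage-gated channels 3 fell and none rose. They were Cacna1h, the pore of a T-type channel (-0.35 ± 0.074, adjusted p = 0.0128), Cacna1s, the L-type pore of skeletal muscle (-0.31 ± 0.067, adjusted p = 0.0152), and Ahnak, a scaffold that binds the channel's beta subunit (-0.25 ± 0.053, adjusted p = 0.0135). Cacna1s fell and Casq1 rose, and both are at home in skeletal muscle. The part of skeletal muscle in these differences was not tested. Ahnak was lower on HFD too (-0.36 ± 0.075, adjusted p = 0.0188), a call that ended when any 1 of these HFD arrays was left out: WT 1, WT 2, Clock 2 and Clock 3 (adjusted p up to 0.0719).

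Of 11 measured genes of beta-adrenergic and cyclic AMP signalling 1 rose and 1 fell. Pde2a, a phosphodiesterase that breaks down cyclic AMP, rose by 0.43 ± 0.063 (adjusted p = 0.000743) and by 0.53 ± 0.089 on HFD (adjusted p = 0.00465). Its 8 Clock and 8 WT hearts did not overlap, as in 0.73% of all genes. Popdc2, a membrane protein that binds cyclic AMP, fell by 0.17 (± 0.044, adjusted p = 0.0390). Stim2, a calcium sensor of the internal store, rose by 0.20 ± 0.041 (adjusted p = 0.0104), 1 of 14 genes of sarcolemmal transport. Smdt1, a subunit of the mitochondrial calcium uniporter, rose by 0.11 ± 0.028 (adjusted p = 0.0474), 1 of 7 mitochondrial genes. Tcap, a protein of the Z-disc and T-tubule, fell by 0.52 (± 0.13, adjusted p = 0.0395), 1 of 8 dyad genes, and its WT SC hearts ranged from -0.71 to 0.67. Akap7, Popdc2, Stim2 and Smdt1 were singled out after their values were seen.

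The count of 11 held least well for the last genes. Without 1 array it ran from 7 to 9, and 7 of the 11 kept their call whichever array was left out (Ahnak, Cacna1h, Cacna1s, Pde2a, Rcan1, Srl and Stim2). It was 7 without WT SC replicate 3, WT HFD replicate 4, Clock SC replicate 3, or Clock HFD replicate 1 or 3. Without both WT SC replicates 2 and 4 it was 5. On SC 1 of the 93 was called (1.08%, against 0.491% of all genes) and on HFD 4 (4.3%, against 1.9% of all genes). The HFD count was 2, Rcan1 and Pde2a, when 1 of the HFD arrays WT 1, WT 2, Clock 2 and Clock 3 was left out.

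For the diet averaged over genotypes 2 of the 93 were higher and 4 lower on HFD (6.45%, against 1.54% of all genes). Fxyd1, phospholemman, the small regulator of the sodium pump, fell by 0.26 (± 0.038, adjusted p = 0.00292). All 8 of its HFD hearts (highest -0.039) lay below all 8 SC hearts (lowest 0.039). No overlap in either direction was seen in 0.325% of all genes. Cacna2d1, an auxiliary subunit of the L-type channel, rose by 0.18 ± 0.040 (adjusted p = 0.0357), and Atp2b1, a calcium pump of the surface membrane, rose by 0.15 ± 0.032 (adjusted p = 0.0319). Rcan1 fell by 0.43 (± 0.10, adjusted p = 0.0442), Lmcd1, a LIM domain protein, by 0.26 (± 0.062, adjusted p = 0.0451) and Prkar1a, a regulatory subunit of protein kinase A, by 0.19 (± 0.043, adjusted p = 0.0357). The count was 4 without WT SC replicate 3, Clock SC replicate 1 or Clock HFD replicate 3, and 1 to 3 without any other single array. Without both WT SC replicates 2 and 4 it was 2. Fxyd1 was the 1 gene of the 6 that kept its call whichever array was left out. Prkar1a was the single gene called for the diet in WT hearts (-0.31 ± 0.061, adjusted p = 0.0348), a call lost without any 1 of the 8 WT arrays or Clock HFD replicate 2. The WT count was 2 without Clock SC replicate 2, and 3 without Clock SC replicate 4 or with the genes of least SD over the arrays left out. In Clock hearts 0 of 93 were called for the diet by limma (9 at an unadjusted p under 0.05), and for the interaction 0 (6 unadjusted). The Clock count was 1, Fxyd1, without WT SC replicate 4 and in 5 of 11 other settings.

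**Figure D4:**
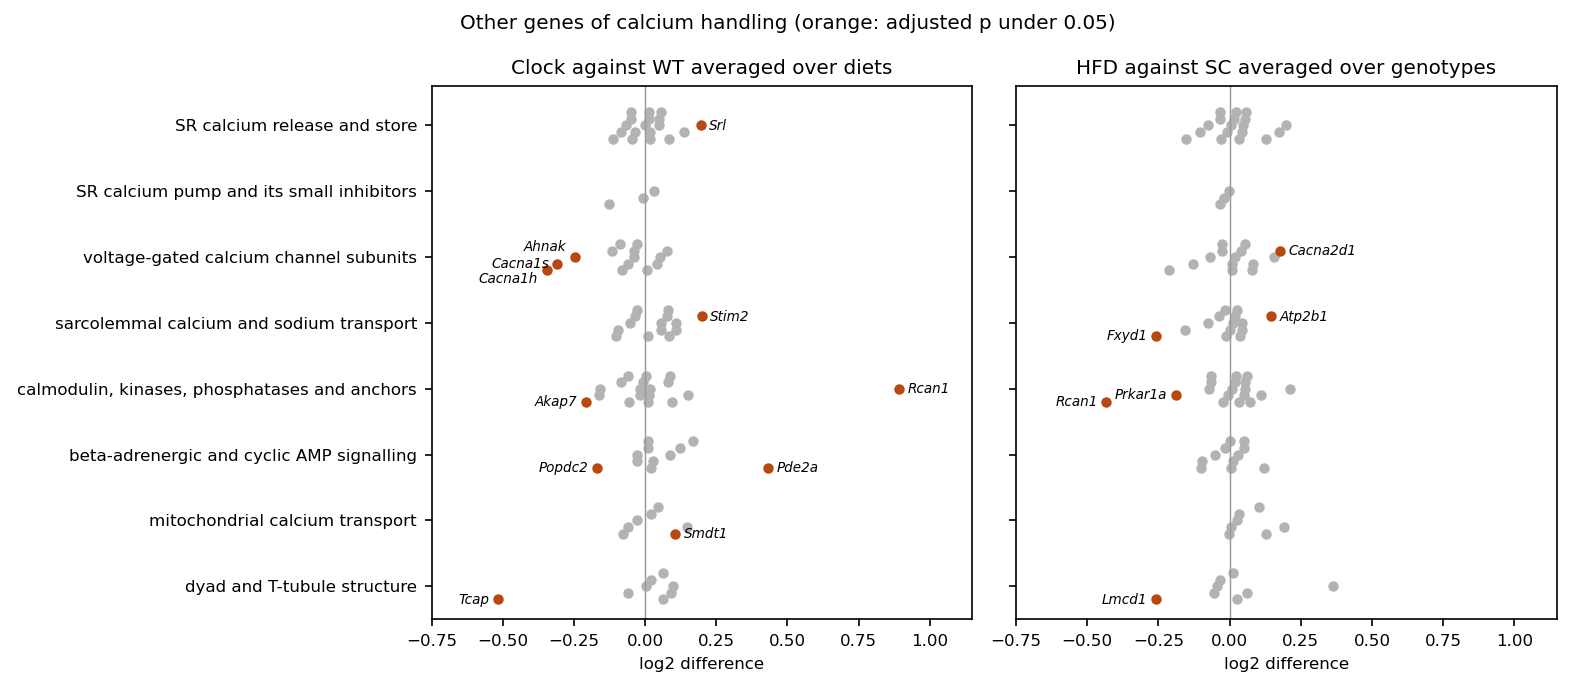
Log2 difference (horizontal axis) of the 93 other calcium handling genes, 1 point per gene in 8 lists by role (vertical axis), for Clock against WT averaged over diets and for HFD against SC averaged over genotypes; orange points, which are named, have an adjusted p under 0.05. Rcan1 stands apart at 0.89 for genotype, and the 3 called channel genes all lie left of 0.

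Markers of the cell types a heart can hold were read beside these results. Among all genes 3.88% were called for the genotype difference averaged over diets and 16.5% had an unadjusted p under 0.05. A transcript measured in whole myocardium can fall because cells of a type are fewer or because each holds less of it, and these cannot be told apart here. Of 15 cardiomyocyte markers 0 were called by limma in any of the 7 comparisons (3 at an unadjusted p under 0.05 for the genotype averaged over diets), and the mean of the list was -0.016, -0.043, 0.0013 and 0.015 in WT SC, WT HFD, Clock SC and Clock HFD. Their genotype differences averaged over diets were above 0 in 12 and below in 3 (median 0.035). On SC 9 were above 0 and 6 below, and on HFD 13 above and 2 below. Casq1 belongs to skeletal muscle, so 15 skeletal muscle markers were set beside it. Of these 0 were called in any comparison (2 unadjusted for the averaged genotype difference, median -0.014). Their mean lay between -0.010 and 0.082 in WT SC hearts, -0.12 and 0.066 in WT HFD, -0.11 and -0.011 in Clock SC, and -0.0032 and 0.0019 in Clock HFD. Single markers went both ways: of the 15 genotype differences 6 were above 0 and 9 below on SC, and 8 above and 7 below on HFD. The widest, chosen after its values were seen, was that of Acta1, skeletal actin, at -1.13 ± 0.31 on SC (adjusted p = 0.161) and 0.44 ± 0.31 on HFD (adjusted p = 0.60). The part of skeletal muscle in the differences of Casq1 was not tested.

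**Figure D5:**
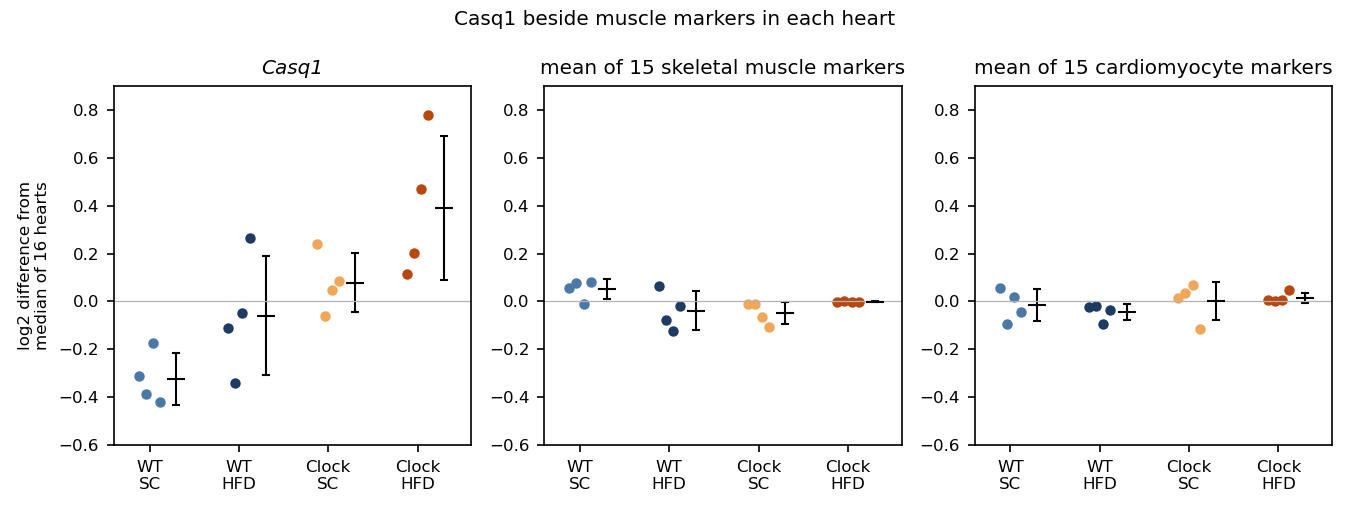
Casq1, the mean of 15 skeletal muscle markers and the mean of 15 cardiomyocyte markers in each heart (vertical axis: log2 difference from the median of 16 hearts, 1 scale for all panels), by group, with the mean and SD of 4 hearts. Casq1 spans -0.42 to 0.78 and the skeletal muscle mean -0.12 to 0.082; a mean over 15 genes varies less than a single gene, so the widths of these ranges are not comparable.

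Markers of fibroblasts and of endothelial cells did move with the genotype. Among all genes 3.88% were called for the averaged genotype difference, 1.9% between genotypes on HFD and 1.54% for the averaged diet difference. Of 10 fibroblast markers 4 rose in Clock hearts averaged over diets (Lum, Col1a1, Gsn and Postn, by 0.27 to 0.30; median of the list 0.20), and Postn rose in HFD against SC averaged over genotypes (0.34 ± 0.068, adjusted p = 0.0227). The mean of the list was -0.19 (-0.24 to -0.072) in WT SC hearts, -0.024 (-0.16 to 0.14) in WT HFD, 0.038 (-0.021 to 0.096) in Clock SC and 0.11 (-0.079 to 0.26) in Clock HFD, the order of Ryr2, Casq1 and Srl. Of 10 endothelial markers 5 rose in Clock hearts (Pecam1, Tek, Egfl7, Robo4 and Esam, by 0.16 to 0.36; median 0.16), and 3 of these, Egfl7, Robo4 and Esam, were also called between genotypes on HFD. For the diet 3 fell (Kdr, Emcn and Egfl7, by 0.20 to 0.24). Their mean was -0.041 (-0.096 to 0.067) in WT SC hearts, -0.16 (-0.19 to -0.13) in WT HFD, 0.098 (0.031 to 0.13) in Clock SC and 0.037 (-0.051 to 0.12) in Clock HFD, the order of Casq2. The part of these cells in the differences of Ryr2, Casq1 and Casq2 was not tested. Among the other lists the neutrophil marker Mmp9 rose in Clock hearts (0.61 ± 0.074, adjusted p = 0.000163) and the mesothelial marker Upk3b fell with the diet (-0.27 ± 0.048, adjusted p = 0.0105). The mean of 8 atrial markers ran the other way: it was 0.12 (0.096 to 0.15) in WT SC hearts, 0.013 (-0.11 to 0.071) in WT HFD, -0.016 (-0.14 to 0.10) in Clock SC and -0.055 (-0.097 to -0.026) in Clock HFD, the reverse of the order of Ryr2, Casq1 and Srl. Among its members Nppa, atrial natriuretic peptide, had a genotype difference of -1.0 ± 0.33 on SC (adjusted p = 0.253). The mean of 8 lymphocyte markers, at 0.046, -0.0086, -0.0097 and -0.033, stood in the same reverse order. For the atrial mean r was -0.77 with Ryr2 and -0.77 with Casq1, and -0.40 and -0.50 after the group means were removed. The mean of 6 neutrophil markers stood in the order of Casq2. It was -0.065 in WT SC, -0.081 in WT HFD, 0.10 in Clock SC and 0.027 in Clock HFD. Its r with Casq2 was 0.58, and -0.37 after the group means were removed. For the endothelial mean r with Casq2 was 0.82, and 0.094 after the group means were removed. For the fibroblast mean r was 0.69 with Ryr2 and 0.65 with Casq1, and 0.034 and 0.13 after the group means were removed. The part of atrial tissue, lymphocytes and neutrophils in the differences of Ryr2, Casq1, Casq2 and Srl was not tested. No gene was called by limma in any comparison among the atrial, conduction, macrophage, lymphocyte, adipocyte and nerve markers. Nor was any smooth muscle and pericyte or erythroid marker (1 of 6 erythroid markers measured). Of 8 smooth muscle and pericyte markers 5 had an unadjusted p under 0.05 for the averaged genotype difference, against 16.5% of all genes. The markers named in this paragraph were chosen after their values were seen.

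For each of the 8 genes the most similar genes over the 16 hearts were found by Pearson's r among all genes with a full name. From the 22180 genes, those with a Gm number, a Rik or a LOC name were left out. The genes named here are the highest of the remaining values and are given as a description. For Ryr2 they were Ralgapa2 (r = 0.97, and 0.87 after the group means were removed) and Cpe (0.95 and 0.75). For Casq1 they were Ankrd9 (0.94 and 0.84) and Nme6 (0.88 and 0.80), and for Casq2 Mal (0.93 and 0.44) and Gstm7 (0.91 and 0.46). The likeness of Casq2 thus lay largely in the group means, while that of Ryr2 and Casq1 was also present among hearts of 1 group. For Atp2a2 they were Fto (0.85 and 0.88) and Tspan3 (0.85 and 0.85), and for Pln Prune1 (0.91 and 0.87) and Cdh13 (0.86 and 0.75). For Cacna1c they were Btbd9 (0.89 and 0.89) and Epb41l4b (0.80 and 0.78). For Slc8a1 they were Cr1l (0.87 and 0.86) and Myf6 (0.82 and 0.81), and for Camk2d Acaa1a (0.85 and 0.86) and Mfhas1 (0.84 and 0.82). All of these points share the same 16 arrays.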

How the data were processed

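The deposited table holds log2 values of 34351 probe sets in 16 arrays. The values came from the authors with a common scale and each probe set centred on its median over the arrays, as the values themselves show. Which software and methods were used, and the base and sign of the logarithm, the sources used here do not say. Replicates are separate mice, per the labels. Probe sets with 1 gene symbol (23521) were averaged per gene, and those with several (1814) or none listed (9016) were left out. Tests used lmFit and eBayes of limma 3.58.1 under R 4.3.3 (two-sided, 12 residual and 4.16 prior degrees of freedom), and the code was tested on simulated data. The planned filter on dim genes was replaced by one on SD, since centred values hold no levels.

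The members, the 8 calcium lists and the 14 marker lists were chosen with earlier results of these data known. The naming rule takes the 8 genes, up to 6 called pathway genes of largest difference per comparison and the 2 genes most like each member. Promoters came from RefSeq (GRCm38.p6). The other settings were other summaries of probe sets, eBayes with trend and robust, array weights, quantile normalization, the SD filter, only the 8 arrays compared, replicate blocks and leaving out arrays. The number of arrays limits the precision.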

Additional observations from a re-analysis of the deposited data

How the results depend on the processing

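No difference of the 8 genes reversed a call in any setting. Of 896 differences with 1 array left out, 884 stayed on their side of the threshold, 11 lost a call and 1 gained one, and of 564 in the other settings 557 stayed, 6 lost a call and 1 gained one. Most of these differences were not called with all arrays and so had no call to lose. All 11 losses were of the averaged diet call of Ryr2. As each member has 1 probe set, a median over probe sets or a fit per probe set could not change its own difference. Clock against WT averaged over diets kept 3 called members with each array left out (3 to 3) and had 0 with WT SC replicates 2 and 4 both left out, a setting added after seeing the data that leaves 2 mice in that group. Clock against WT on HFD went from 0 to 1 called member, Casq1, with the genes of least SD over the arrays left out (adjusted p = 0.0423), and ran from 0 to 1 with single arrays left out. That filter left 16635 genes and removed Atp2a2, Pln, Casq2 and Cacna1c. HFD against SC averaged over genotypes had 1 called member, Ryr2, and 0 with that filter (adjusted p = 0.0786), 0 with the replicate block (adjusted p = 0.0661), 0 with WT SC replicates 2 and 4 both left out (adjusted p = 0.165) and 0 to 1 with single arrays left out. Over all genes no pairing of the hearts by replicate number was seen. Residuals of same-numbered arrays correlated at a median of -0.020 over 24 pairs (-0.15 to 0.16, 3 over 0.1). Those of differently numbered arrays did so at a median of 0.00074 over 72 pairs (-0.20 to 0.21, 5 over 0.1). A batch shared by some of the arrays was not tested. With the replicate block 7 in place of 11 other calcium genes were called for the averaged genotype difference, and 2 in place of 6 for the diet, where eBayes with trend and robust gave 3. The averages and the interaction have no value with only the 8 arrays compared. The cause of these changes was not tested.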
